A study of Mus musculus with 24 samples.

Results

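Axon guidance genes encode the ligands and receptors that steer growing axons, and the 71 genes of 4 ligand and receptor families were followed in the hippocampal CA1 region of mice after pilocarpine-induced status epilepticus (SE). Members were chosen by gene symbol alone: semaphorins (Sema3 to Sema7) with plexins and neuropilins (31 genes), ephrins with Eph receptors (22 genes), Slits with Robo receptors (7 genes), and netrins and netrin-Gs with Dcc and Unc5 receptors (11 genes). They comprised 37 ligands and 34 receptors among the 18647 genes of the deposited count table, and all 71 passed the filter on low counts that left 18153 genes for testing. Adult C57Bl/6N mice (at least 60 days old and 20 g) received 1 mg/kg scopolamine methyl nitrate, 20 min later 335 mg/kg pilocarpine hydrochloride, and 4 mg/kg diazepam 40 min after SE began, and only animals that entered SE were kept. CA1 was dissected 6, 12, 24, 36 or 72 h after SE. Non-SE controls (Ctr) were taken at 12, 36 and 72 h after the same scopolamine and diazepam with saline in place of pilocarpine. Each of the 8 groups had 3 libraries of polyA RNA, 24 in all. SE at 12, 36 and 72 h was compared with the control of the same hour, whereas SE at 6 and 24 h had no control of its own and was compared with the mean of the 3 control groups.

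The families include both membrane-bound and secreted cues. Semaphorins bind plexins, with neuropilins as co-receptors for most of the secreted class 3; ephrins are tethered to the membrane and activate Eph receptor tyrosine kinases on neighbouring cells; Slits bind Robo receptors and mostly repel; netrins attract through Dcc and repel through Unc5 receptors. In the adult hippocampus many of these genes stay on in neurons, glia and vessels, where they are known to act on synapses, spines and blood vessels.

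Library totals ranged from 2663936 to 30133731 counts (median 13521590), with the control at 72 h the shallowest group (11680209, 5793721 and 2663936). All 6 CA1 pyramidal cell markers were detected, at summed levels of 752 to 1463 CPM (library-scaled counts) in the controls and 311 to 900 CPM after SE. Some libraries stood apart. Ctr 72 h replicate 2 held 1649 CPM of 10 sensory ganglion markers against 9.75 to 80.6 CPM in the other 8 controls, and 5 SE libraries also exceeded 100 CPM (SE 6 h replicate 3, SE 12 h replicate 1, SE 36 h replicate 3, and SE 72 h replicates 1 and 2, at 313.6, 641, 799, 889.6 and 462 CPM). Ctr 12 h replicate 3 held 268 CPM of CA3 pyramidal cell markers and 110.0 CPM of dentate granule cell markers, against at most 82.7 and 53.4 CPM in the other controls. After SE, dentate markers were highest in SE 72 h replicate 1, at 234.7 CPM, the library with the lowest CA1 markers (311 CPM). They were 92.3 and 96.5 CPM in SE 12 h replicates 1 and 3, and 94.4 and 100.3 CPM in SE 36 h replicates 1 and 2. Other SE libraries held 17.8 to 65.4 CPM of them, and the Ctr 36 h libraries 14.6 to 23.2 CPM. The part of dentate tissue in the gene values was not tested. Calls at 72 h are therefore given with and without Ctr 72 h replicate 2, and also without all 6 ganglion-marker libraries, which leaves a single SE 72 h library that is assumed to vary like the other groups.

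In the non-SE controls, ligand and receptor genes of the same family lay at very different levels. Levels are compared between genes only as CPM per kb of the canonical transcript, as the median of the 9 control libraries. Among semaphorins the highest ligand was Sema6b, a transmembrane class 6 semaphorin, at 45.9 (range 37.3 to 47.8) CPM per kb, followed by the GPI-anchored Sema7a at 38.1 (range 31.3 to 45.8), and these ranges overlapped. Reads over all exons of a gene were counted, and Sema6b has 6723 exonic bases beside a canonical 3769, Sema7a 3321 beside 3318. Which of the 2 is higher therefore depends on the length used. The lowest were the secreted Sema3b at 0.383 (range 0.233 to 10.8) and Sema3a at 0.509 (range 0.181 to 0.805). Plexins and neuropilins were closer together, from 4.91 for Plxnb3 to 18.6 for Plxnb1. In the ephrin family the transmembrane Efnb3 was the highest ligand at 47.1 (range 36.3 to 51.5) and Epha4, an EphA receptor that also binds B-type ephrins, the highest receptor at 35.8 (range 16.1 to 78.5). Epha2 at 0.398 (range 0.217 to 0.621) and Epha1 at 0.109 (range 0.00 to 0.258) CPM per kb were the lowest Eph receptors. Slit1 at 49.3 (range 17.4 to 79.4) exceeded Slit3 (7.001) and Slit2 (4.22), and Robo2 at 10.8 (range 7.02 to 12.4) led the Robo genes. Among netrin ligands the netrin-Gs Ntng2 at 23.7 (range 20.7 to 35.97) and Ntng1 at 10.5 stood above the 4 classical netrins, which lay between 0.827 and 2.66; the leading receptor was Unc5a at 42.2 (range 31.6 to 54.7), with the other 4 between 1.87 and 4.11 CPM per kb.

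**Figure D1:**
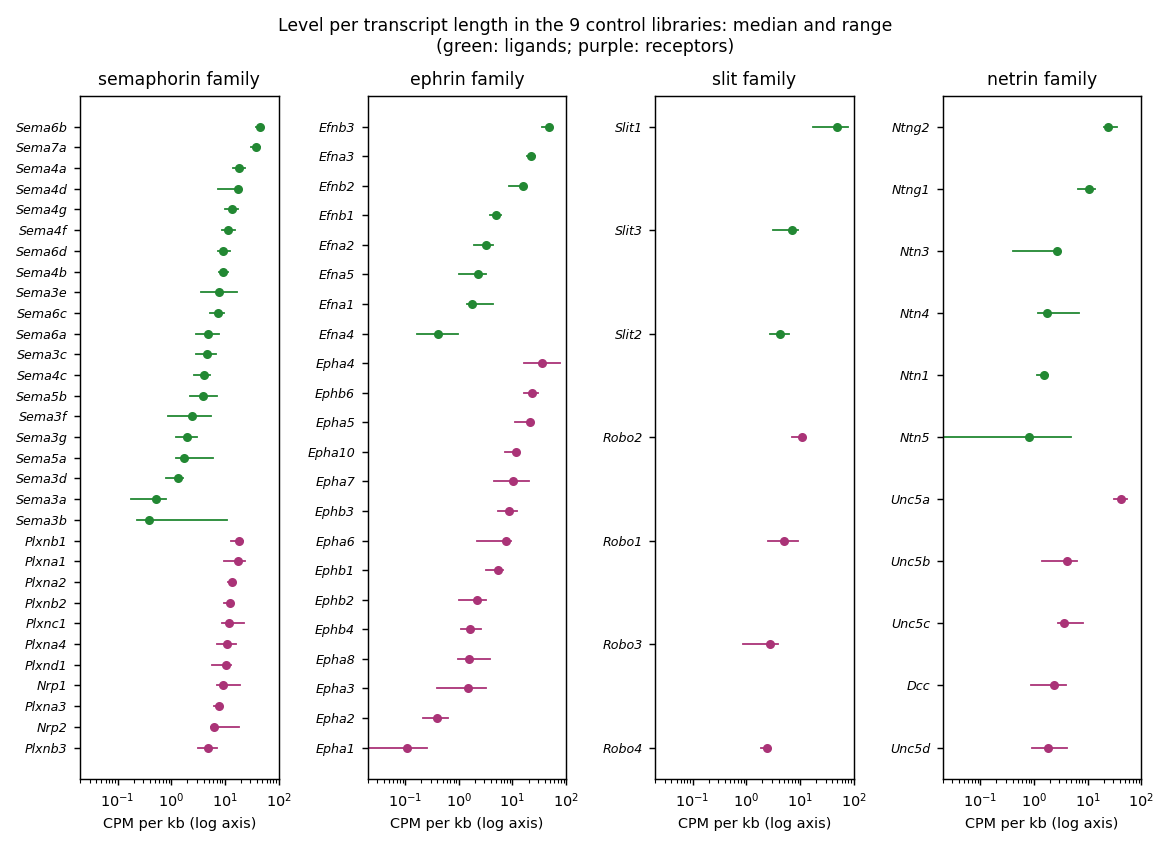
Level of each of the 71 genes in the 9 non-SE control libraries, as CPM per kb of the canonical transcript on a log axis, by family. Points are medians and lines run from the lowest to the highest library (a line that leaves the left edge reaches 0); Slit1, Efnb3, Sema6b, Unc5a and Epha4 lie at the top of their families, and the line of Sema3b is drawn out by 1 library, Ctr 72 h replicate 2.

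A gene was called where edgeR's quasi-likelihood test across 18153 genes gave an adjusted p up to 0.05 together with a log2 fold change (log2FC) of 0.66 or more in either direction. After SE, 47 of the 71 genes passed at 1 hour or more, against 49.9% of all genes tested: 24 rose only, 21 fell only, 2 did both (Ephb1 and Robo1), and 24 were never called (50.1% of all genes). Of the 37 ligands, 15 rose only and 8 fell only, and of the 34 receptors, 9 rose only, 13 fell only and 2 did both. Of all genes, 1.64% did both. The shares of all genes that rose only or fell only were not counted, so no difference between ligands and receptors is drawn from these counts. Increases outnumbered decreases at 6 h, and narrowly at 72 h, as they did among all genes. Decreases outnumbered increases at 36 h, and narrowly at 12 and 24 h, while among all genes increases led at each of these hours. The order at 12 and 24 h changed with single libraries. It reversed without SE 12 h replicate 1 (10 rose and 7 fell at 12 h) and without SE 24 h replicate 1 (11 and 9 at 24 h). It held without SE 12 h replicate 2 (9 and 17 at 12 h) and without SE 24 h replicate 2 (10 and 17 at 24 h). At 6 h, 14 genes rose and 3 fell, against 15.8% and 6.2% of all genes. At 12 h, 9 rose and 11 fell (all genes, 13.9% and 11.4%, or 25.3% in either direction). At 24 h, 11 rose and 12 fell (all genes, 15% and 9.24%). At 36 h, 11 rose and 17 fell (all genes, 12.7% and 8.96%), so 28 of 71 were called where 21.7% of all genes were. At 72 h, 8 rose and 7 fell (all genes, 15.2% and 4.15%, or 19.4% in either direction). Without Ctr 72 h replicate 2, 6 rose and 8 fell, where 16.8% of all genes were called, and 9 of the 15 calls were kept. Leaving out all 6 ganglion-marker libraries leaves a single SE 72 h library. Most of the 15 calls were not kept in that fit, and its calls are not counted here. Only Epha2 rose at all 5 hours and only Sema6c fell at all 5, where 3.63% and 0.595% of all genes did so.

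Among receptors, 11 fell and 4 rose at 36 h (median log2FC -0.44), beside 6 ligands that fell and 7 that rose (median -0.15). Of all genes tested, 12.7% rose and 8.96% fell at 36 h, and their median was 0.00. By family, the medians at 36 h were -0.11 for semaphorins, -0.25 for ephrins, -0.65 for Slits and -0.09 for netrins; at 6 h they were 0.15, 0.16, 0.20 and 0.10 in the same order, where the median of all genes was 0.06. Counted by libraries that do not overlap, 9 genes lay above and 13 below the controls in all 3 SE libraries at 12 h (all genes, 24.5% and 23.2%), 17 and 29 at 36 h (25.8% and 26.2%), and 14 and 13 at 72 h (19.4% and 13.4%). In total, 22 of 71 genes did not overlap at 12 h, where 47.7% of all genes did not, 46 at 36 h (51.9%) and 27 at 72 h (32.8%).

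**Figure D2:**
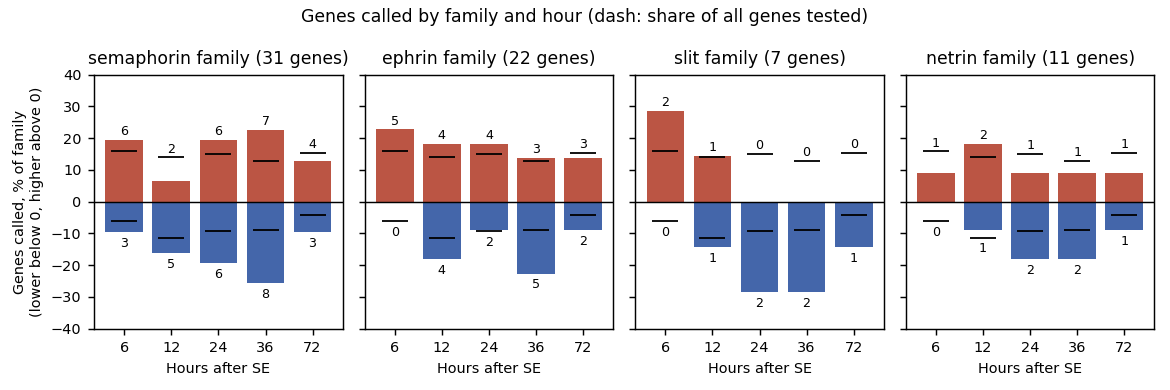
Genes called at each hour after SE as a percentage of each family, higher above 0 and lower below 0, with the number of genes at each bar; black dashes mark the share of all 18153 genes tested. In the semaphorin family 8 of 31 genes were called lower at 36 h (all genes, 8.96%). In the Slit family, with 7 genes, no gene was called higher after 12 h (all genes, 15%, 12.7% and 15.2% at 24, 36 and 72 h).

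**Figure D3:**
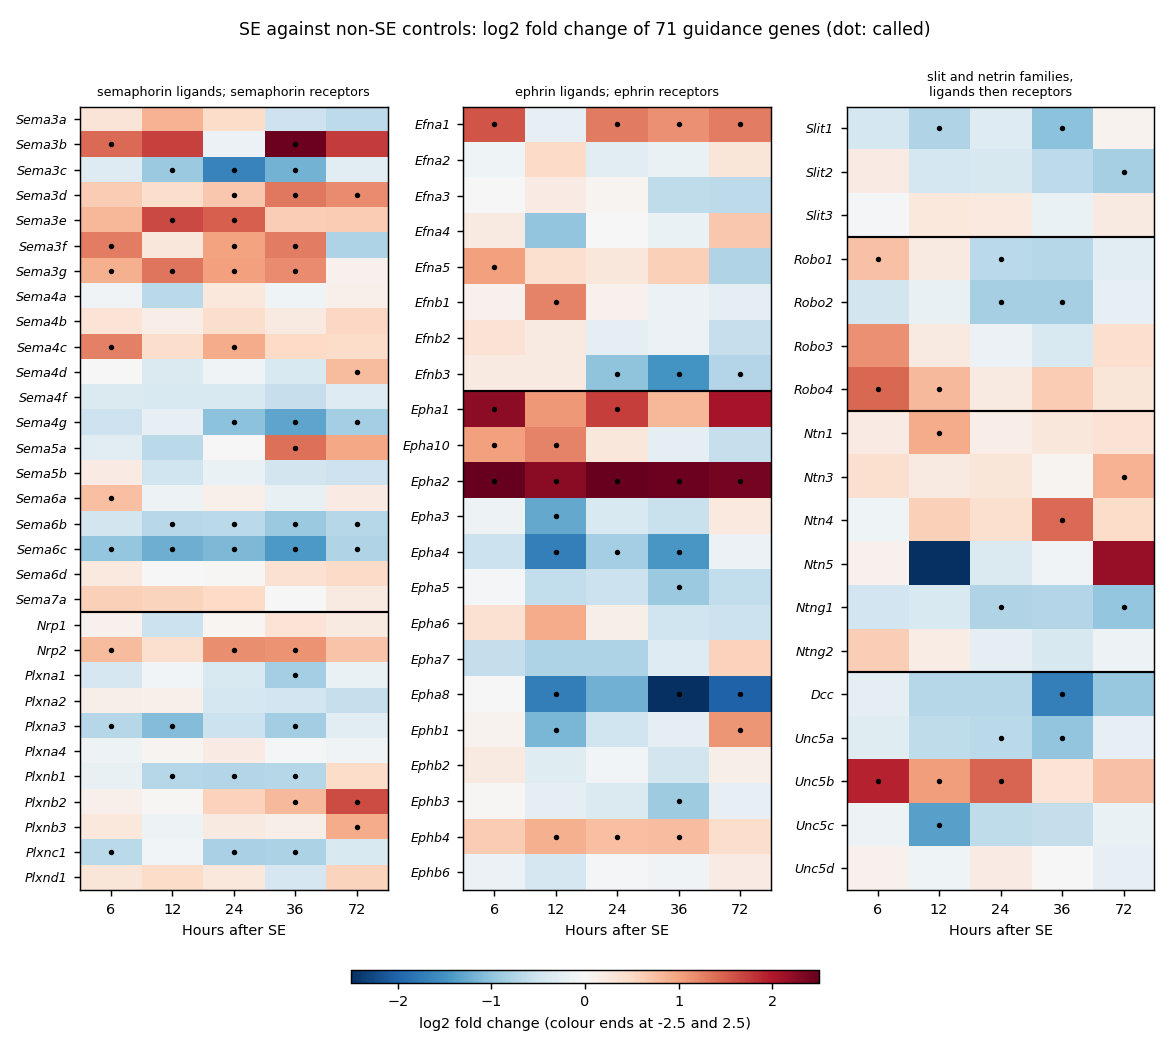
Log2FC of all 71 genes in 5 columns, 1 for each hour, against the controls described in the text; the colour scale ends at -2.5 and 2.5, and a dot marks a call. Epha2 is red and dotted in all 5 columns and Sema6c blue and dotted in all 5, while most other genes carry dots in some columns.

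Epha2, a receptor tyrosine kinase for A-type ephrins that is best known from epithelium and vessels, rose at all 5 hours. The gene lies at chr4:141028540-141056695 on the + strand (GRCm39). It lay at 0.853 to 2.44 CPM (median 1.56) in the 9 controls and at 6.95, 7.25 and 14.1 CPM at 6 h, 6.21, 10.3 and 11.1 at 12 h and 9.66, 8.84 and 13.3 at 24 h. The libraries at 36 h held 7.48, 12.5 and 5.24 CPM and those at 72 h 6.33, 6.20 and 6.63. None of the 15 SE libraries overlapped the controls. The log2FC was 2.65, 2.25, 2.81, 2.45 and 2.39 in order of hour (s.e. 0.27, 0.36, 0.27, 0.37 and 0.43; adjusted p 3.35e-07, 7.08e-05, 7.9e-08, 4.11e-05 and 0.000322). At 72 h it was 2.14 without Ctr 72 h replicate 2 (called) and 2.21 without the 6 libraries (called). Epha2 and Sema6c, the genes called in 1 direction at all 5 hours, have RefSeq promoter windows (250 bases before to 50 after a transcription start; RefSeq holds such windows for 61 of the 71 genes), and 1 window of each is shown for that reason. The Epha2 window is at chr4:141300971-141301270 (GRCm38.p6, + strand), a build other than the GRCm39 of the counts. Capitals mark a match to any of 4 motifs searched on both strands: the cyclic AMP response element TGACGTCA, the AP-1 site TGANTCA, the EGR site GCGNGGGCG and the E-box CACGTG.
Epha2: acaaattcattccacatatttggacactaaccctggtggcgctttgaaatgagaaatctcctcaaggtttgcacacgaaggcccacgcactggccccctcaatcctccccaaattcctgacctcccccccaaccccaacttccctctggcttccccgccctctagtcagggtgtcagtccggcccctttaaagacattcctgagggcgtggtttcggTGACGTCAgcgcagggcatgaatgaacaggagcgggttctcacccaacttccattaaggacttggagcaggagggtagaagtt
The Epha2 window held 1 match, a TGACGTCA that begins at base 218 of the window, where 1.79% of all 32851 RefSeq promoter windows hold that motif. The 61 genes have 77 windows, none of the others with that motif; 3 of the 77 had an AP-1 match (7.81% of all windows), 14 an EGR match (5.55%) and 5 an E-box (7.15%).

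The ligand Efna1, an A-type ephrin that binds EphA2, was also higher. Its controls ranged over 2.13 to 6.36 CPM (median 2.63), with SE libraries at 12.3, 11.8 and 4.12 CPM at 6 h and 6.80, 8.62 and 7.99 at 24 h. The increase was called at 6 h (log2FC 1.56, s.e. 0.30, adjusted p 0.000356) and 24 h (log2FC 1.29, s.e. 0.30, adjusted p 0.00173) but was -0.21 at 12 h, when the libraries held 4.42, 3.02 and 2.87 CPM against 3.41, 6.36 and 2.13. At 36 h the libraries held 4.74, 5.91 and 4.79 CPM against 2.16, 2.19 and 2.63 in controls (log2FC 1.15, s.e. 0.40, adjusted p 0.0321); the call was lost whichever of the 6 libraries was left out (log2FC 1.04 to 1.24). At 72 h the values were 11.1, 8.68 and 5.85 CPM against 2.95, 5.80 and 2.25 (log2FC 1.28, s.e. 0.41, adjusted p 0.0256); the call was lost when SE 72 h replicates 1 and 2 and Ctr 72 h replicates 1 and 3 were left out in turn (log2FC 1.04 to 1.27). The log2FC at 72 h was 1.64 without Ctr 72 h replicate 2 (called) and 1.098 without the 6 libraries (not called). Efna5 rose at 6 h (log2FC 1.03, s.e. 0.24, adjusted p 0.0018), and Efnb1 at 12 h (log2FC 1.23, s.e. 0.27, adjusted p 0.00116). Efna2, Efna3, Efna4 and Efnb2 were not called at any hour.

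Efnb3, the most abundant ephrin and a ligand of EphB receptors and EphA4, moved the other way from 24 h. At 36 h its libraries held 54.1, 71.6 and 55.6 CPM, all below the controls at 176, 158 and 179 (log2FC -1.503, s.e. 0.21, adjusted p 1.55e-05). At 12 h the groups overlapped, with 155, 233 and 134 CPM against 169.6, 149 and 126 (log2FC 0.23). The level was 74.97, 67.7 and 95.6 CPM at 24 h (log2FC -1.01, s.e. 0.18, adjusted p 0.000142) and 95.6, 92.4 and 103 at 72 h against 164, 148 and 169.8 (log2FC -0.73, s.e. 0.21, adjusted p 0.0121). The 72 h value was -0.78 without Ctr 72 h replicate 2 (called) and -0.69 without the 6 libraries (not called).

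Several EphA receptors fell. Epha4 held 107, 60.7 and 97.03 CPM at 12 h against 226, 139 and 497 in controls (log2FC -1.71, s.e. 0.34, adjusted p 0.000526) and 107, 97.6 and 107 at 36 h against 279, 310.5 and 262 (log2FC -1.45, s.e. 0.33, adjusted p 0.00222). The groups did not overlap at either hour, and at 72 h they did, with 120.5, 131 and 111 CPM against 172, 123 and 102 (log2FC -0.14). The highest control value is that of Ctr 12 h replicate 3, the library with raised CA3 markers; without it the log2FC at 12 h was -1.05, still called. At 24 h Epha4 was also lower (log2FC -0.85, s.e. 0.28, adjusted p 0.0199); the call was lost when SE 24 h replicates 1 and 3 and Ctr 12 h replicate 3 were left out in turn (log2FC -0.83 to -0.64). Fewer cells of a type and less RNA per cell cannot be told apart in such bulk samples, and 3 of 6 CA1 pyramidal markers fell at 36 h (median log2FC -0.86), 1 at 12 h and 2 at 72 h. Epha8 had the largest fall of the 71 genes. It reached 0.222, 0.552 and 0.684 CPM at 36 h (3, 7 and 12 reads) against 7.70, 5.53 and 7.39 in controls (log2FC -3.78, s.e. 0.70, adjusted p 0.000359). Its values were 1.44, 5.005 and 2.71 CPM at 12 h against 7.95, 18.7 and 4.64, which overlap (log2FC -1.74, s.e. 0.58, adjusted p 0.0224); the call was lost when SE 12 h replicates 1 and 3 and Ctr 12 h replicate 2 were left out in turn (log2FC -1.65 to -0.96). At 72 h they were 2.13, 1.33 and 2.05 against 5.40, 11.6 and 7.12 (log2FC -2.03, s.e. 0.63, adjusted p 0.0209); without SE 72 h replicate 2 this call was lost (-1.86). The log2FC at 72 h was -1.70 without Ctr 72 h replicate 2 (called) and -1.57 without the 6 libraries (not called).

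Epha3 fell at 12 h, to 4.27, 7.13 and 4.86 CPM from 7.38, 13.8 and 18.4 (log2FC -1.27, s.e. 0.47, adjusted p 0.0373); the call was lost when SE 12 h replicates 1 and 3 and Ctr 12 h replicates 2 and 3 were left out in turn (log2FC -1.21 to -0.95). Epha5 fell at 36 h (log2FC -0.93, s.e. 0.20, adjusted p 0.00139) and was not called at 72 h (log2FC -0.61), where it was -0.90 without Ctr 72 h replicate 2 (called) and -0.86 without the 6 libraries (called). Epha10, whose kinase domain is catalytically inactive, rose early instead. It held 137, 128 and 134 CPM at 6 h (log2FC 1.02, s.e. 0.15, adjusted p 3.22e-05) and 140.4, 179 and 181 at 12 h against 78.9, 79.1 and 54.4 (log2FC 1.24, s.e. 0.20, adjusted p 7.68e-05). By 36 and 72 h its libraries held 65.4, 58.3 and 37.8 and 49.6, 40.2 and 35.8 CPM, with log2FC of -0.25 and -0.58 that were not called. Its 72 h value was -0.81 without Ctr 72 h replicate 2 (called) and -1.04 without the 6 libraries (called), lower in both. Epha1 was called higher at 6 and 24 h (log2FC 2.24 and 1.73) from at most 22 reads in any control library, and is uncertain: 36.9% of its exonic bases overlap Zyx on the opposite strand, the counting ignored strand, and Zyx itself was higher at both hours (log2FC 1.47 and 1.60). At 24 h, without SE 24 h replicate 3 this call was lost (1.35). Whether reads of Zyx entered the Epha1 counts was not tested.

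Of the EphB receptors, which bind B-type ephrins at synapses and vessels, Ephb1 changed direction. At 12 h it held 9.39, 13.9 and 10.5 CPM, all below 24.3, 21.4 and 28.5 in controls (log2FC -1.14, s.e. 0.24, adjusted p 0.00101), and at 72 h 34.1, 43.3 and 50.3 CPM, all above 25.4, 15.2 and 17.6 (log2FC 1.11, s.e. 0.25, adjusted p 0.00216). The log2FC at 72 h was 0.96 without Ctr 72 h replicate 2 (called) and 1.18 without the 6 libraries (called). Ephb4, the venous receptor of ephrin-B2, was higher at 12, 24 and 36 h (log2FC 0.89, 0.76 and 0.77). At 12 h the call was lost when SE 12 h replicate 3 and Ctr 12 h replicates 1 and 3 were left out in turn (log2FC 0.72 to 0.78); at 36 h the call was lost when SE 36 h replicates 1 and 3 and Ctr 36 h replicates 1, 2 and 3 were left out in turn (log2FC 0.68 to 0.85); and without Ctr 72 h replicate 1 this call was lost (0.62) at 24 h. Ephb3 was lower at 36 h (log2FC -0.89, s.e. 0.27, adjusted p 0.0167); without SE 36 h replicate 2 this call was lost (-0.72). Ephb2, the kinase-inactive Ephb6, Epha6 and Epha7 passed at no hour.

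Of the 7 secreted class 3 semaphorins, 3, 2, 4, 4 and 1 were called higher in order of hour (all genes, 15.8%, 13.9%, 15%, 12.7% and 15.2%). At 1 hour or more 5 were called higher, Sema3b among them, and Sema3c was called lower. Of all genes, 49.9% were called in either direction, and the share called higher at 1 hour or more was not counted. The median log2FC of the class was 0.84, 0.87, 0.68, 1.19 and 0.10, and that of all genes 0.06, 0.01, 0.04, 0.00 and 0.10. Sema3g, a semaphorin of vessels, held 18.7, 19.03 and 30.8 CPM at 12 h against 9.46, 10.8 and 6.88 (log2FC 1.35, s.e. 0.29, adjusted p 0.00112) and 18.1, 15.6 and 18.01 at 36 h against 8.85, 7.99 and 5.83 (log2FC 1.19, s.e. 0.29, adjusted p 0.00371). It rose at 6 and 24 h as well (log2FC 0.88 and 1.02), but at 72 h the groups overlapped, with 16.6, 8.87 and 6.09 CPM against 9.96, 13.6 and 5.62 (log2FC 0.10). Of 10 endothelial markers, 5, 5, 6, 4 and 3 rose in order of hour and 2, 1, 1, 1 and 0 fell, with a summed level of 403 to 602 CPM after SE and 278 to 394 CPM in controls, and their part in the Sema3g values was not tested. Sema3d rose later, to 14.97, 18.9 and 14.6 CPM at 36 h against 7.55, 6.32 and 5.34 (log2FC 1.33, s.e. 0.23, adjusted p 0.000184) and 23.96, 16.02 and 18.7 at 72 h against 10.7, 5.63 and 10.5 (log2FC 1.18, s.e. 0.24, adjusted p 0.00109). Its log2FC at 72 h was 0.89 without Ctr 72 h replicate 2 (called) and 0.81 without the 6 libraries (not called); at 24 h (log2FC 0.68) the call was lost when SE 24 h replicates 2 and 3, Ctr 36 h replicate 3 and Ctr 72 h replicate 2 were left out in turn (log2FC 0.50 to 0.64).

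Sema3e, the class 3 member that binds plexin-D1 without a neuropilin, rose at 12 h (log2FC 1.66, s.e. 0.48, adjusted p 0.00997) and 24 h (log2FC 1.501, s.e. 0.36, adjusted p 0.00232); at 12 h without SE 12 h replicate 3 this call was lost (1.08), and at 24 h without SE 24 h replicate 3 this call was lost (0.95). Sema3f, a ligand of neuropilin-2, rose at 6 h (log2FC 1.28, s.e. 0.30, adjusted p 0.00222), 24 h (log2FC 1.01) and 36 h (log2FC 1.28, s.e. 0.40, adjusted p 0.0202). At 24 h without SE 24 h replicate 3 this call was lost (0.85), and at 36 h the call was lost when SE 36 h replicate 1 and Ctr 36 h replicates 1 and 3 were left out in turn (log2FC 1.06 to 1.29). Sema3c was the exception and fell, with log2FC of -0.93, -1.67 and -1.19 at 12, 24 and 36 h (adjusted p 0.0159, 5.22e-05 and 0.00421); at 12 h the call was lost when SE 12 h replicate 2 and Ctr 12 h replicate 2 were left out in turn (log2FC -0.82 to -0.71). Sema3a was not called. Sema3b followed the ganglion markers. At 36 h it held 2.15, 2.29 and 19.7 CPM against 0.863, 1.36 and 1.15 (log2FC 2.46, s.e. 0.73, adjusted p 0.0138), and the high value is in SE 36 h replicate 3. Its other high values, 18.8 CPM in SE 12 h replicate 1, 25.7 and 13.6 in SE 72 h replicates 1 and 2, and 39.9 in Ctr 72 h replicate 2, are all in libraries above 100 CPM of those markers. At 36 h the call was lost when SE 36 h replicate 3 and Ctr 36 h replicate 1 were left out in turn (log2FC 0.95 to 2.29), and without the 6 libraries the log2FC was 0.96 and not called. At 6 h (log2FC 1.42) the call was lost in 9 of the 12 fits that left out 1 library (log2FC 0.96 to 1.47 there).

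Of the 13 membrane-bound semaphorins of classes 4 to 7, 4 rose at 1 hour or more, 3 fell and 6 were not called. Of all genes tested, 49.9% were called at 1 hour or more and 50.1% at none. Sema6c, a class 6 semaphorin that signals through plexin-A, lies at chr3:95067726-95084627 on the + strand (GRCm39) and held 20.2 to 37.9 CPM (median 28.6) in the 9 controls. After SE it held 20.1, 10.6 and 12.4 CPM at 6 h, 11.7, 12.1 and 11.2 at 12 h and 12.96, 17.3 and 8.34 at 24 h. At 36 h the libraries held 13.3, 10.5 and 9.06 CPM and at 72 h 13.5, 20.2 and 15.2. Each SE group lay below its controls without overlap, though at 72 h the highest SE library (20.22 CPM) nearly met the lowest control (20.25 CPM). The log2FC was -0.97, -1.23, -1.12, -1.43 and -0.76 in order of hour (s.e. 0.22, 0.25, 0.22, 0.25 and 0.26; adjusted p 0.00146, 0.00078, 0.000394, 0.000233 and 0.0326). The 72 h value rests on single libraries: the call was lost when SE 72 h replicates 1 and 3 and Ctr 72 h replicates 1 and 2 were left out in turn (log2FC -0.79 to -0.52). It was -0.52 without Ctr 72 h replicate 2 (not called) and -0.64 without the 6 libraries (not called). A promoter window of Sema6c at chr3:95160170-95160469 (GRCm38.p6, + strand) held none of the 4 motifs, nor did its other RefSeq window.
Sema6c: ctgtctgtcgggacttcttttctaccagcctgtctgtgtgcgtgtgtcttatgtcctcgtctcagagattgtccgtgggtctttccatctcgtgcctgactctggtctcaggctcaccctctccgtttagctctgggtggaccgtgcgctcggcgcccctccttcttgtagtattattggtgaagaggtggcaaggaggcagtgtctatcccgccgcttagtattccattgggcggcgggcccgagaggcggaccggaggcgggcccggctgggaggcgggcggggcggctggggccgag
The Sema6c window was 62.7% G and C and the Epha2 window 54.7%.

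Sema6b, the semaphorin with the highest control median per canonical length, fell at 12, 24, 36 and 72 h. It held 92.4, 132 and 86.1 CPM at 12 h against 156, 170.1 and 179 (log2FC -0.70, s.e. 0.15, adjusted p 0.000925); the call was lost when SE 12 h replicates 1 and 3 and Ctr 12 h replicates 2 and 3 were left out in turn (log2FC -0.66 to -0.58). At 36 h it held 98.9, 87.8 and 89.4 against 176, 173 and 174 (log2FC -0.92, s.e. 0.15, adjusted p 7.56e-05), and no single omission changed that call. At 72 h it held 82.3, 96.5 and 107 against 140.4, 147 and 180.0 (log2FC -0.71, s.e. 0.15, adjusted p 0.00128); the call was lost when SE 72 h replicate 1 and Ctr 72 h replicate 3 were left out in turn (log2FC -0.61 to -0.60). The 72 h log2FC was -0.74 without Ctr 72 h replicate 2 (called) and -0.58 without the 6 libraries (not called); at 24 h (log2FC -0.68) the call was lost when SE 24 h replicate 3 and Ctr 72 h replicate 3 were left out in turn (log2FC -0.64 to -0.58). Sema4g held 27.1, 21.8 and 23.4 CPM at 36 h, below 62.3, 56.0 and 62.1 in controls (log2FC -1.32, s.e. 0.18, adjusted p 1.39e-05), and 36.5, 43.1 and 40.8 at 72 h against 63.7, 79.8 and 74.99 (log2FC -0.85, s.e. 0.18, adjusted p 0.00146), with log2FC -1.03 at 24 h. Its 72 h value was -0.78 without Ctr 72 h replicate 2 (called) and -0.76 without the 6 libraries (not called); 12.7% of its exonic bases overlap Mrpl43 on the opposite strand.

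Those that rose did so at fewer hours. Sema4c, a ligand of plexin-B2, rose at 6 h (log2FC 1.25, s.e. 0.20, adjusted p 6.77e-05) and 24 h (log2FC 0.93, s.e. 0.20, adjusted p 0.0012). Sema6a rose at 6 h (log2FC 0.74); without Ctr 72 h replicate 2 this call was lost (0.60). Sema4d, the ligand of plexin-B1 and known from oligodendrocytes and immune cells, rose at 72 h, with 80.3, 115 and 97.4 CPM against 63.5, 33.9 and 78.7 (log2FC 0.79, s.e. 0.16, adjusted p 0.00119); the call was lost when SE 72 h replicate 2 and Ctr 72 h replicate 2 were left out in turn (log2FC 0.47 to 0.66). The log2FC of Sema4d was 0.47 without Ctr 72 h replicate 2 (not called) and 0.47 without the 6 libraries (not called). Sema5a, which carries thrombospondin repeats, held 57.2, 32.95 and 30.6 CPM at 36 h against 15.7, 17.8 and 13.3 (log2FC 1.37, s.e. 0.50, adjusted p 0.0403); the call was lost when SE 36 h replicate 1 and Ctr 36 h replicates 1, 2 and 3 were left out in turn (log2FC 1.02 to 1.48). Sema4a, Sema4b, Sema4f, Sema5b, Sema6d and Sema7a were called at no hour; Sema5b at 72 h had log2FC -0.52, and -0.79 without Ctr 72 h replicate 2 (called) and -0.55 without the 6 libraries (not called).

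Plexin-B2 (Plxnb2), the receptor of class 4 semaphorins, had the smallest adjusted p of the 71 genes at 72 h. Its level was 80.1, 102 and 85.2 CPM at 12 h against 87.9, 93.2 and 80.5 (log2FC 0.03), 177, 135 and 135 at 36 h against 85.5, 87.3 and 81.7 (log2FC 0.81, s.e. 0.14, adjusted p 0.000133) and 203, 223 and 262 at 72 h against 78.7, 63.6 and 79.1 (log2FC 1.63, s.e. 0.14, adjusted p 5.54e-08). The groups overlapped at 12 h and not at 36 and 72 h, and the 72 h log2FC was 1.55 without Ctr 72 h replicate 2 (called) and 1.73 without the 6 libraries (called). All 10 microglial markers rose at 72 h (median log2FC 2.32), 7 of 10 rose at 36 h and 1 at 12 h; their summed level was 1643 to 2352 CPM at 72 h, 765 to 874 at 36 h and 376 to 460.5 in controls. The part of these cells in the Plxnb2 values was not tested. Plxnb3 also rose at 72 h (log2FC 0.92, s.e. 0.29, adjusted p 0.024); the call was lost when SE 72 h replicates 2 and 3 and Ctr 72 h replicates 2 and 3 were left out in turn (log2FC 0.59 to 0.92). The log2FC of Plxnb3 was 0.61 without Ctr 72 h replicate 2 (not called) and 0.66 without the 6 libraries (not called).

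Plexin-B1 (Plxnb1) fell at 12, 24 and 36 h and not at 72 h. It had the highest control median of the plexins per canonical length, in a range that overlapped that of Plxna1. It held 106, 115 and 158 CPM at 12 h against 213, 223 and 188 (log2FC -0.72, s.e. 0.14, adjusted p 0.000402), 128, 105.4 and 134 at 36 h against 220.5, 213 and 170.2 (log2FC -0.72, s.e. 0.14, adjusted p 0.000465), and 204, 219 and 209.7 at 72 h against 182, 130.5 and 146 (log2FC 0.46). At 12 h the call was lost when SE 12 h replicate 1 and Ctr 12 h replicate 2 were left out in turn (log2FC -0.63 to -0.61), at 36 h the call was lost when SE 36 h replicate 2 and Ctr 36 h replicate 1 were left out in turn (log2FC -0.65 to -0.62), and at 24 h (log2FC -0.73) without SE 24 h replicate 3 this call was lost (-0.65). Of the plexin-A receptors, Plxna3 fell from 61.99, 61.6 and 44.04 to 26.3, 24.4 and 28.3 CPM at 12 h (log2FC -1.08, s.e. 0.16, adjusted p 2.73e-05) and from 55.7, 54.3 and 46.5 to 31.7, 28.9 and 25.6 at 36 h (log2FC -0.86, s.e. 0.16, adjusted p 0.000295), without overlap at either hour; at 6 h (log2FC -0.70) the call was lost when SE 6 h replicate 2 and Ctr 12 h replicate 2 were left out in turn (log2FC -0.65 to -0.62). Plxna1 was lower at 36 h (log2FC -0.86); the call was lost when SE 36 h replicates 2 and 3 and Ctr 36 h replicate 2 were left out in turn (log2FC -0.84 to -0.73). Plxnc1, the receptor of semaphorin 7A, was lower at 6, 24 and 36 h (log2FC -0.67, -0.82 and -0.79). At 6 h the call was lost when SE 6 h replicates 1 and 2, Ctr 12 h replicates 1 and 2, Ctr 36 h replicate 3 and Ctr 72 h replicate 2 were left out in turn (log2FC -0.64 to -0.54); at 36 h without SE 36 h replicate 2 this call was lost (-0.53). Neuropilin-2 (Nrp2) rose at 6, 24 and 36 h (log2FC 0.78, 1.17 and 1.13; adjusted p 0.00825, 0.000254 and 0.0047), and without SE 6 h replicate 2 this call was lost (0.63) at 6 h. Nrp1, Plxna2, Plxna4 and Plxnd1 were not called.

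**Figure D4:**
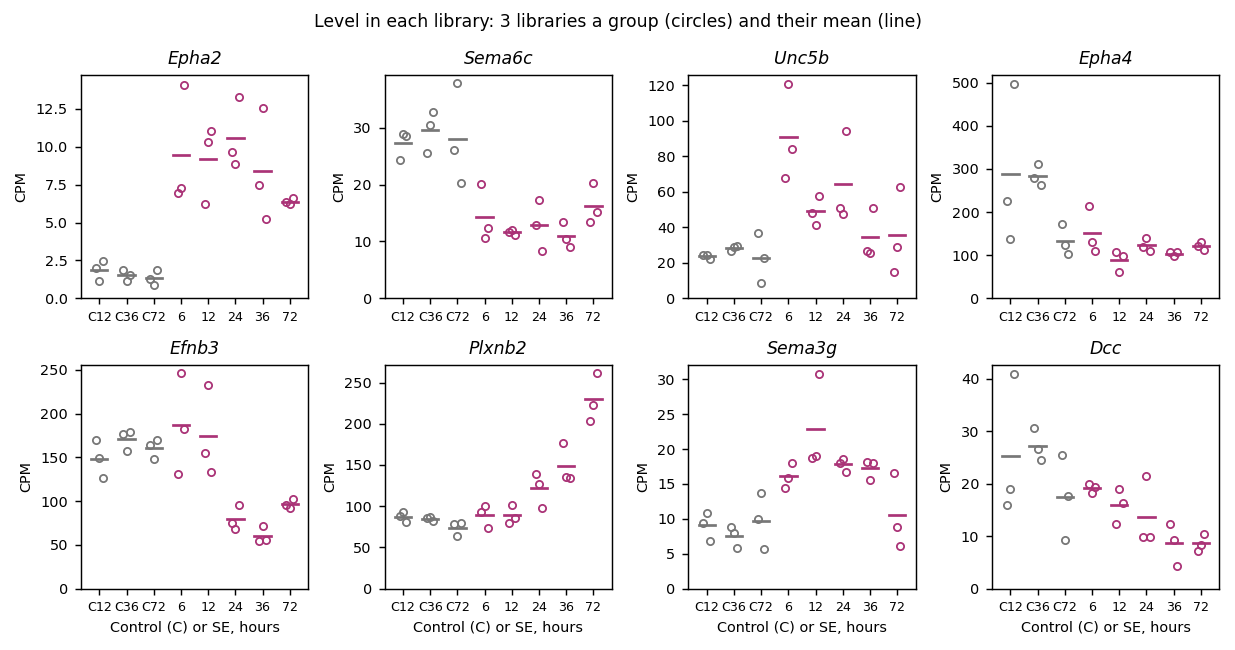
CPM of 8 genes in each library (circles) with the mean of the 3 libraries of a group (line); controls at 12, 36 and 72 h are grey and SE groups purple. Every SE library of Epha2 lies above the controls; Plxnb2 reaches 203 to 262 CPM at 72 h, Efnb3 falls to 54.1 to 71.6 CPM at 36 h, and the Epha4 control at 12 h with 497 CPM is Ctr 12 h replicate 3.

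In the Slit family, Robo4, the endothelial Robo, rose at 6 and 12 h, and Slit1, Slit2 and Robo2 fell. Robo4 held 25.2, 32.7 and 40.5 CPM at 6 h, above all controls at 9.20 to 13.6 CPM (median 11.8) (log2FC 1.44, s.e. 0.17, adjusted p 2.44e-06). At 12 h it held 19.4, 18.2 and 27.2 against 11.6, 13.6 and 11.8 (log2FC 0.80, s.e. 0.22, adjusted p 0.00803); without SE 12 h replicate 3 this call was lost (0.61). Slit1, the most abundant Slit, held 166, 96.0 and 154 CPM at 36 h, below 269, 314 and 259 in controls (log2FC -1.02, s.e. 0.28, adjusted p 0.00757); without SE 36 h replicate 2 this call was lost (-0.81). At 12 h its values overlapped, with 195, 188 and 120.0 against 258, 172 and 416 (log2FC -0.75, s.e. 0.27, adjusted p 0.0361), and the call was lost when SE 12 h replicate 3 and Ctr 12 h replicates 1 and 3 were left out in turn (log2FC -0.81 to -0.36). Robo2 fell to 47.9, 61.01 and 69.6 CPM at 36 h from 106, 112 and 97.8 (log2FC -0.82, s.e. 0.17, adjusted p 0.00094) and was lower at 24 h (log2FC -0.82, s.e. 0.15, adjusted p 0.000157). Slit2 was lower at 72 h, at 23.96, 24.4 and 22.3 CPM against 42.03, 60.9 and 27.4 (log2FC -0.84, s.e. 0.29, adjusted p 0.0344); the call was lost when SE 72 h replicates 1, 2 and 3 and Ctr 72 h replicates 1 and 2 were left out in turn (log2FC -0.86 to -0.59). The log2FC of Slit2 was -0.59 without Ctr 72 h replicate 2 (not called) and -0.68 without the 6 libraries (not called). Robo1 was higher at 6 h (log2FC 0.73) and lower at 24 h (log2FC -0.68); at 6 h the call was lost when SE 6 h replicates 2 and 3 and Ctr 72 h replicate 2 were left out in turn (log2FC 0.60 to 0.63), and at 24 h the call was lost in 8 of the 12 fits that left out 1 library (log2FC -0.75 to -0.51 there). Slit3 and Robo3 were not called.

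Among netrin receptors, Unc5b, which vessels express, rose and the others fell where called. Unc5b held 67.8, 120.3 and 84.3 CPM at 6 h against 8.36 to 36.9 CPM (median 24.3) in the 9 controls (log2FC 1.92, s.e. 0.29, adjusted p 3.7e-05) and 50.97, 47.3 and 94.4 at 24 h (log2FC 1.45, s.e. 0.30, adjusted p 0.0006). At 12 h it held 47.8, 41.5 and 57.8 against 24.2, 24.3 and 22.4 (log2FC 1.05, s.e. 0.39, adjusted p 0.0371); the call was lost when SE 12 h replicates 1 and 3 and Ctr 12 h replicates 1, 2 and 3 were left out in turn (log2FC 0.93 to 1.11). It was not called at 36 and 72 h (log2FC 0.34 and 0.74), and at 72 h it was 0.11 without Ctr 72 h replicate 2 (not called) and 1.005 without the 6 libraries (called). Dcc, the attractive netrin-1 receptor, fell to 12.2, 9.30 and 4.33 CPM at 36 h from 30.6, 26.6 and 24.6 (log2FC -1.70, s.e. 0.35, adjusted p 0.000864) and had log2FC of -0.71, -0.71 and -0.95 at 12, 24 and 72 h that were not called; at 72 h the value was -1.32 without Ctr 72 h replicate 2 (called) and -1.08 without the 6 libraries (not called). Unc5a, the most abundant receptor of the family, held 136, 92.5 and 117 CPM at 36 h, below 218, 229 and 242 (log2FC -0.996, s.e. 0.15, adjusted p 3.3e-05); at 24 h (log2FC -0.67) the call was lost when SE 24 h replicate 3 and Ctr 12 h replicate 3 were left out in turn (log2FC -0.66 to -0.64). Unc5c fell at 12 h to 19.2, 24.96 and 18.5 CPM from 41.5, 39.3 and 79.7 (log2FC -1.36, s.e. 0.24, adjusted p 0.000228), and Unc5d was not called.

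Of the 6 netrin ligands, 3 rose and 1 fell, each at 1 or 2 hours, where 49.9% of all genes were called at 1 hour or more. Ntn1, the founding netrin, held 11.6, 29.1 and 15.1 CPM at 12 h against 10.4, 11.3 and 7.66 (log2FC 0.93, s.e. 0.26, adjusted p 0.00728); without SE 12 h replicate 2 this call was lost (0.45). Ntn4, a netrin of basement membranes, held 17.3, 11.3 and 11.97 CPM at 36 h, above 6.47, 4.44 and 4.52 (log2FC 1.41, s.e. 0.29, adjusted p 0.000941). At 72 h its libraries held 16.3, 14.02 and 16.9 against 7.09, 26.4 and 8.62, and the log2FC was 0.45, or 1.04 without Ctr 72 h replicate 2 (called) and 1.15 without the 6 libraries (not called). Ntn3 was called higher at 72 h (log2FC 0.87) from 9.82, 11.5 and 14.5 CPM against 12.2, 2.05 and 9.37; without Ctr 72 h replicate 2 this call was lost (0.13), and without the 6 libraries it was 0.38 and not called. The GPI-anchored Ntng1, which binds a netrin-G ligand and not Dcc or Unc5, was lower at 72 h, at 28.2, 30.9 and 34.7 CPM against 62.1, 75.7 and 46.1 (log2FC -0.97, s.e. 0.33, adjusted p 0.0333), and the call was lost when SE 72 h replicates 1, 2 and 3 and Ctr 72 h replicates 1 and 2 were left out in turn (log2FC -1.05 to -0.79). It was -0.79 without Ctr 72 h replicate 2 (not called) and -0.67 without the 6 libraries (not called). At 24 h (log2FC -0.75) the call was lost when SE 24 h replicates 1 and 3 and Ctr 12 h replicate 1 were left out in turn (log2FC -0.69 to -0.62). Ntng2, the most abundant netrin ligand, was not called: the controls spanned 32.99 to 57.3 CPM (median 37.8) and the SE libraries 23.8 to 66.3 CPM. Ntn5 was not called either, with log2FC from -2.55 at 12 h to 2.17 at 72 h and no read in SE 24 h replicate 3 or Ctr 72 h replicate 3. Of its exonic bases, 32.9% overlap Sec1 on the opposite strand, and Sec1 itself had log2FC -2.85 at 12 h and -0.22 at 72 h. Whether reads of Sec1 entered the Ntn5 counts was not tested.

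Whether the SE effect itself differed between hours was tested as the difference of the matched log2FC values, and the log2FC given here is that difference. Between 12 and 72 h, 12 of 71 genes passed (18.6% of all genes), 7 toward higher values and 5 toward lower (all genes, 12.4% and 6.25%), around a shift of 0.15 in the median of all genes. Among the called genes the largest difference was that of Ephb1 (log2FC 2.25, s.e. 0.34, adjusted p 0.000233), which went from -1.14 to 1.11. Plxnb2 (log2FC 1.60, s.e. 0.19, adjusted p 2.85e-05) and Plxnb1 (log2FC 1.18, s.e. 0.19, adjusted p 0.000402) moved up as well, as did Sema4d (log2FC 1.15, s.e. 0.23, adjusted p 0.00172) and Plxna3 (log2FC 0.80, s.e. 0.22, adjusted p 0.0155). For Epha4 (log2FC 1.57, s.e. 0.47, adjusted p 0.0216) the call was lost when SE 12 h replicate 2 and Ctr 12 h replicate 3 were left out in turn (log2FC 0.91 to 1.36), and for Unc5c (log2FC 1.19, s.e. 0.34, adjusted p 0.0186) without Ctr 12 h replicate 3 this call was lost (0.78). Epha10 moved down (log2FC -1.81, s.e. 0.28, adjusted p 0.000275), with Efnb1 (log2FC -1.45, s.e. 0.38, adjusted p 0.0112), Efnb3 (log2FC -0.96, s.e. 0.29, adjusted p 0.0226), Sema3g (log2FC -1.25, s.e. 0.42, adjusted p 0.0375) and Plxna2 (log2FC -0.70, s.e. 0.14, adjusted p 0.00178). For Efnb3 the call was lost when SE 12 h replicate 2 and Ctr 12 h replicate 3 were left out in turn (log2FC -0.85 to -0.69); for Sema3g the call was lost in 7 of the 12 fits that left out 1 library (log2FC -1.28 to -0.96 there); for Plxna2 the call was lost when SE 72 h replicate 2, Ctr 72 h replicate 2, SE 12 h replicate 1 and Ctr 12 h replicate 2 were left out in turn (log2FC -0.65 to -0.61). Without the 6 ganglion-marker libraries a single SE 72 h library is left, and most of these 12 calls were not kept.

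Between 12 and 36 h, 5 of 71 genes passed (3.35% of all genes), 1 toward higher values and 4 toward lower (all genes, 1.97% and 1.38%). Efnb3 (log2FC -1.73, s.e. 0.29, adjusted p 0.00359) and Epha10 (log2FC -1.49, s.e. 0.28, adjusted p 0.00769) were kept whichever library was left out. Efnb1 (log2FC -1.37, s.e. 0.37, adjusted p 0.0452), Sema4g (log2FC -1.11, s.e. 0.25, adjusted p 0.0217) and Plxnb2 (log2FC 0.78, s.e. 0.19, adjusted p 0.0304) were not: for Efnb1 the call was lost in 11 of the 12 fits that left out 1 library (log2FC -1.52 to -0.93 there), for Sema4g the call was lost when Ctr 36 h replicates 1 and 3 were left out in turn (log2FC -1.09 to -1.08), and for Plxnb2 the call was lost in 7 of the 12 fits that left out 1 library (log2FC 0.64 to 0.80 there). Across the 71 genes, which share libraries and 1 fit, the log2FC at 12 h correlated with that at 36 h at r = 0.607 and with that at 72 h at r = 0.235, and that at 36 h with that at 72 h at r = 0.708; the sign was the same for 49, 41 and 51 genes.

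**Figure D5:**
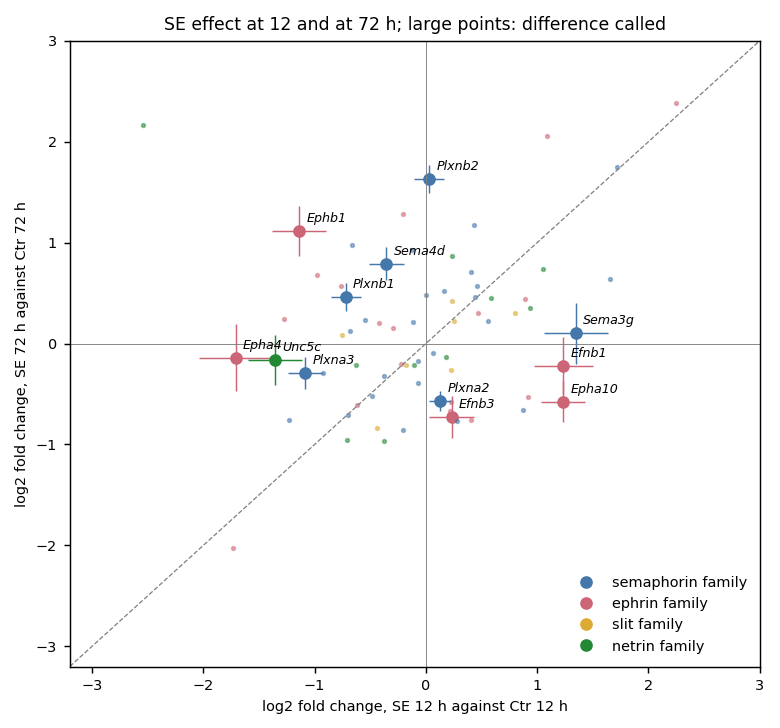
Log2FC of the 71 genes at 12 h (horizontal) and 72 h (vertical), each against the control of the same hour; the dashed line marks equal values, and large points with bars of 1 s.e. are the 12 genes whose difference was called. Ephb1 lies at -1.14 and 1.11, Plxnb2 at 0.03 and 1.63, and Epha10 at 1.24 and -0.58.

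With all SE hours combined (5 SE groups against the 3 control groups, each weighted equally, with the same libraries as above), 12 genes were higher and 9 lower, where 16.7% and 7.7% of all genes were. The higher ones were Epha2 (log2FC 2.51, s.e. 0.21, adjusted p 6.12e-09), Epha1, Sema3b, Unc5b, Sema3e, Efna1, Sema3g, Sema3d, Nrp2, Sema4c, Ephb4 and Robo4, with log2FC from 2.51 down to 0.68. Those lower were Epha8 (log2FC -1.75, s.e. 0.30, adjusted p 7.13e-05), Sema6c (adjusted p 5.11e-07), Epha4, Sema3c, Dcc, Sema4g, Sema6b, Plxna3 and Ntng1, the last at -0.66. For Ntng1 the call was lost in 13 of the 24 fits that left out 1 library (log2FC -0.66 to -0.59 there); for Robo4 the call was lost when SE 6 h replicate 3, SE 12 h replicate 3, SE 24 h replicate 3, SE 36 h replicate 2 and Ctr 36 h replicate 3 were left out in turn (log2FC 0.62 to 0.65); for Ephb4 the call was lost when Ctr 12 h replicate 3 and Ctr 72 h replicate 1 were left out in turn (log2FC 0.56 to 0.65). Sema4c, Sema6b and Plxna3 each lost the call without 1 library (Ctr 12 h replicate 3, log2FC 0.65; Ctr 72 h replicate 3, -0.66; Ctr 12 h replicate 2, -0.64). Only in Epha2, Sema6c and Sema6b did none of the 15 SE libraries overlap the 9 controls among these 21, and the share of all genes that did so was not counted. The margin was narrow in Sema6c (highest SE library 20.22 CPM, lowest control 20.25) and Sema6b (139.9 and 140.4). At no hour called were the 24 remaining genes, with log2FC between -2.55 and 2.17, both of them Ntn5, and between -0.98 and 1.15 for the other 23.

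Downstream of these receptors, in a list of 48 signal transduction genes, 7, 12, 8, 8 and 8 rose in order of hour and 1, 1, 2, 3 and 1 fell. Of all genes tested, 15.8%, 13.9%, 15%, 12.7% and 15.2% rose and 6.2%, 11.4%, 9.24%, 8.96% and 4.15% fell. Median log2FC of the list was 0.24, 0.34, 0.17, 0.12 and -0.01, where that of all genes was 0.06, 0.01, 0.04, 0.00 and 0.10. Fes, a tyrosine kinase that acts with plexins, rose at every hour (log2FC 0.78, 1.23, 1.41, 1.42 and 2.21), as did the actin regulator Vasp (0.95, 1.04, 1.42, 1.35 and 0.97). Dock1, a Rac activator used by Dcc, rose from 12 h on (0.76, 1.46, 1.48 and 1.51). The Slit-Robo GTPase activator Srgap1 rose at 6, 12, 24 and 36 h (0.93, 1.23, 0.85 and 1.12). Rras, a plexin substrate, rose from 12 h on (0.84, 0.85, 1.15 and 1.39). Vav3, a guanine nucleotide exchange factor of Eph signalling, fell at 24 h (-0.95) and rose at 72 h (1.52). The plexin-binding GTPase Rnd1 rose at 6 h (1.54), and Evl, a relative of Vasp, at 6 and 12 h (0.94 and 0.95). Chn1, the Rac inhibitor that relays EphA4, fell at 6, 12, 24 and 36 h (-0.78, -1.59, -0.68 and -0.99). Among the collapsin response mediators, Crmp1 (-1.003) and Dpysl4 (-0.71) fell at 36 h and Dpysl2 (-0.71) at 72 h. Fes and Vasp are also expressed outside neurons, and the microglial values above stand beside theirs; their part was not tested.

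A further list of 31 guidance cues and receptors outside the 4 families had 4, 2, 4, 0 and 2 genes that rose in order of hour and 2, 7, 8, 6 and 1 that fell, beside the same shares of all genes. Its medians were -0.04, -0.37, -0.15, -0.04 and 0.07, beside the same medians of all genes. The chemokine Cxcl12 fell at 6, 24, 36 and 72 h (log2FC -0.77, -1.77, -1.26 and -1.07) and its receptor Cxcr4 rose at 24 h (1.40). The hedgehog receptor Ptch1 fell at 6, 12 and 24 h (-0.80, -1.09 and -0.82), and the axonal adhesion molecule Cntn1 at 12, 24 and 36 h (-0.98, -0.83 and -0.93). L1cam, another, fell at the same hours (-0.67, -0.87 and -1.17), Flrt1 at 24 and 36 h (-0.81 and -1.09), and Rgma at 12 h (-0.93). The myelin inhibitor gene Omg rose at 6 h (0.74) and fell at 24 and 36 h (-1.25 and -0.98), Cdon fell at 24 and 36 h (-0.95 and -0.88), and Mag was higher at 6, 24 and 72 h (0.77, 0.99 and 0.99). Rtn4rl2, of the Nogo receptor family, rose at 6, 12 and 24 h (0.93, 1.28 and 0.85), Lingo1, its kin in myelin signalling, at 6 and 12 h (0.69 and 0.97), and the hedgehog co-receptor Boc at 72 h (0.93).

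Markers of the cells that CA1 tissue holds moved beside these genes, and their part in the values was not tested. Of 9 astrocyte markers 2, 3, 3, 4 and 4 rose in order of hour and 0, 1, 4, 4 and 0 fell, with a summed level of 4998 to 6042 CPM in controls and 15000 to 17090 at 72 h. Of 10 microglial markers 0, 1, 5, 7 and 10 rose and 5, 2, 1, 1 and 0 fell. Of 12 neuronal markers 0, 1, 1, 1 and 0 rose and 0, 3, 2, 4 and 3 fell, and of 7 interneuron markers 1, 1, 1, 0 and 0 and 0, 0, 0, 0 and 3. Oligodendrocytes (7 markers) had 2, 0, 2, 0 and 1 higher and 0, 1, 0, 0 and 0 lower, and their precursors (5 markers) 1, 0, 1, 2 and 3 and 0, 1, 1, 1 and 0. Mural cells (6 markers) had 1, 1, 2, 2 and 1 higher and 1, 1, 0, 0 and 0 lower, and fibroblasts (5 markers) 1, 1, 1, 4 and 1 and 0, 0, 1, 0 and 0. Among 5 dentate granule cell markers 0, 0, 0, 1 and 2 rose and 0, 0, 1, 0 and 0 fell, and of 3 CA3 markers tested none was called. Infiltrating leukocytes (3 markers tested) had 1, 2, 1, 2 and 2 higher, choroid plexus (2 tested) 0, 1, 0, 0 and 0 lower, and the 10 sensory ganglion markers 0, 2, 0, 0 and 0 higher.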

How the data were processed

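PolyA RNA-seq libraries of mouse CA1 were analysed from raw counts of read pairs per gene, deposited by the authors in 1 table. Per the labels' processing notes and the study's methods, reads were trimmed with Trim Galore 0.6.6, aligned with STAR 2.7.8a to GRCm39 with GENCODE M26 genes, sorted with SAMtools 1.10 and counted without regard to strand with HTSeq 0.13.5. Reads where genes on opposite strands overlap could therefore not be assigned by strand. The 71 genes and all lists were chosen with earlier results of these data known. Of the 18647 gene identifiers, 18552 were matched to symbols and positions in a later GENCODE release on the same build, and 95 were not.

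Counts were fitted in R 4.3.3 with edgeR 4.0.16 (TMM scaling, quasi-likelihood test, filterByExpr over the 8 groups), with group and 1 RUVr factor (variation taken from the residuals) as terms and Benjamini-Hochberg adjustment over 18153 genes; the script was tested on simulated data. The RUVr factor was mostly carried by the 72 h controls. It was 0.8015 in Ctr 72 h replicate 2, -0.3943 and -0.3486 in replicates 1 and 3, and -0.0964 to 0.1288 in the other libraries. CPM use TMM library sizes. Nothing in the labels says that the 3 libraries of a group came from separate animals, so p-values measure the spread between libraries, which may be technical; no libraries were identical. Genes were named with every library's values by rule: per family and matched hour, up to 2 called genes with the largest increase and 2 with the largest decrease, among genes averaging a log2 CPM of 1 or more and showing no overlap with the controls, and the ligand and receptor with the highest level per length in controls. Other called genes, and genes whose effect differed between hours, are given by their test, with library values where these show what the call rests on, and up to 3 called genes in each direction are given for each pathway list and hour. Marker lists cover neurons, CA1, CA3 and dentate cells, interneurons, glia, vessels, fibroblasts, leukocytes, choroid plexus and sensory ganglia. Alternatives were other scalings and filters, DESeq2 1.42.0, no RUVr factor, other thresholds, the range of label numbers, a replicate block, the compared groups alone, each library left out, and, chosen after seeing the data, the 6 ganglion-marker libraries left out. The smallest library, with 2663936 counts, limits the precision of low genes in Ctr 72 h.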

Additional observations from a re-analysis of the deposited data

Results flagged for a closer look

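Of 31 genes examined in the 9 control libraries, 5 had a highest or lowest library whose gap to its neighbour, as a share of the whole range, passed Dixon's critical value for 9 samples, which chance passes in about 1 of 20 groups. Sema3b stood out most: Ctr 72 h replicate 2 held 39.9 CPM against 0.863 to 2.83 CPM in the other 8 (ratio 0.9495). Plxnc1 was also highest in that library, at 166.6 CPM against 65.8 to 116 CPM (ratio 0.5005). Nrp2 was highest in Ctr 12 h replicate 3, the library with raised CA3 markers, at 122 CPM against 36.97 to 68.2 CPM (ratio 0.6326). Epha8 was highest in Ctr 12 h replicate 2, at 18.7 CPM against 4.64 to 11.6 CPM (ratio 0.5039). Robo4 was lowest in Ctr 36 h replicate 3, at 9.20 CPM against 11.6 to 13.6 CPM (ratio 0.5613). These 5 are not the only genes with a control library apart. Sema5a and Unc5c were also highest in Ctr 12 h replicate 3, at 64.26 and 79.65 CPM, where the next highest controls held 23.19 and 41.45 CPM. Ntn4 was highest in Ctr 72 h replicate 2, at 26.43 CPM, with the next control at 9.469 CPM.

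The SE effect differed between hours, by the test of the difference itself, in 17 values. From 12 to 36 h, the log2 difference was -1.374 for Efnb1, -1.733 for Efnb3, -1.489 for Epha10, -1.111 for Sema4g and 0.7796 for Plxnb2. From 12 to 72 h, Efnb1 was at -1.452, Efnb3 at -0.9589, Epha10 at -1.813, Sema3g at -1.246 and Plxna2 at -0.6985. Toward higher values in the same comparison were Ephb1 at 2.251, Plxnb2 at 1.602, Epha4 at 1.567, Unc5c at 1.192, Plxnb1 at 1.18, Sema4d at 1.147 and Plxna3 at 0.7958.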

How the results depend on the processing

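Of the 141 calls over the 8 comparisons, none changed direction under any alternative run. Requiring an absolute log2FC of at least 1 left 10, 13, 12, 17 and 6 genes called in order of hour and 8 with all hours combined; the adjusted p alone gave 26 at 6 h and 42 with all hours combined. Without the RUVr factor 3 genes differed between 12 and 36 h. At 72 h, 13 genes were then called and 15.7% of all genes, against 15 and 19.4% with it. The median log2FC of all genes at 72 h was 0.009 without the factor and 0.095 with it. With the 6 ganglion-marker libraries left out, an alternative chosen after seeing the data, 6 genes were called at 72 h, 8 differed between 12 and 36 h and 5 between 12 and 72 h. Leaving out each library in turn gave 13 to 26 genes at 12 h (13 without SE 12 h replicate 3), 22 to 25 at 36 h and 10 to 14 at 72 h. It gave 15 to 19 at 6 h, 15 to 27 at 24 h (15 without SE 24 h replicate 3), 19 to 22 with all hours combined, 2 to 6 for the difference from 12 to 36 h and 10 to 16 for that from 12 to 72 h. The causes of these shifts were not tested. Calls lost numbered 2 with DESeq2, 2 with its size factors, 10 without the RUVr factor, 12 with library totals only, and 0 under either other filter on low counts. They numbered 30 with the range of label numbers as a factor and 62 at an absolute log2FC of at least 1. Slightly more than those 30 were lost without the 6 ganglion-marker libraries. Leaving out each library in turn lost the call in 193 of 1566 values. The label numbers of SE 72 h (104, 119 and 120) and Ctr 72 h (167, 168 and 169) do not share a range, and with that factor 8 of the 15 calls at 72 h were kept, 6 genes rose and 9 fell there, and 13.6% of all genes were called, against 19.4% without it; at 24 h 14 of 23 calls were kept. Library totals alone moved the median log2FC of all genes to 0.13 at 36 h and 0.14 at 72 h.

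Libraries with the same replicate number did not deviate together at every hour (correlations of -0.201 to 0.181 over the 3 matched hours), so the numbers were not taken to pair them. With a replicate block, 22, 28 and 15 genes were called at 12, 36 and 72 h, 16 at 6 h, 23 at 24 h, 21 with all hours combined, and 4 and 15 for the differences, and 3 of the 141 calls were lost. Low depth in Ctr 72 h limits what could be detected there for genes with few reads.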
